A study of Mus musculus with 6 samples.

Results

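The α-arrestins are adaptor proteins with an arrestin fold that was first known from the β-arrestins of receptor signalling. The genes described here are Txnip, Arrdc1, Arrdc2, Arrdc3 and Arrdc4, which encode α-arrestins, and Mlxip, which encodes the glucose-responsive transcription factor MondoA. They are 6 of the 18853 genes in the expression table of mouse bone marrow stromal cells (BMSCs), which grow attached in culture and give rise to osteoblasts, adipocytes and chondrocytes. The members were taken by gene symbol and were chosen by their read counts in WT against HRP2-KO, so that difference is given as a description and not as a test. All 6 were found, and all 6 passed the filter on low counts, as did 13696 genes in all.

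The study profiled RNA from 3 wild-type (WT) samples, numbered 10, 11 and 12, and 3 samples labelled HRP2-KO, numbered 6, 7 and 44, all grown in αMEM with 10% serum. HRP2, also called HDGFR2, is a chromatin reader encoded by Hdgfl2, and the labels give neither the part of the gene that was removed, nor the strain, the age of the mice, or whether any sample was pooled. Separate animals or cultures are not named for the samples, and the errors and p-values below therefore measure only the spread between these libraries, which may be technical. Values by library are given in the order WT 10, 11 and 12, then HRP2-KO 6, 7 and 44. The series title concerns osteogenic differentiation and histone crotonylation and acetylation.

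Txnip binds thioredoxin and also limits glucose uptake by driving the glucose transporters GLUT1 and GLUT4 off the cell surface. Its gene and Arrdc4 are the best-known targets of MondoA, which sits at the outer mitochondrial membrane and moves to the nucleus with its partner Mlx when glucose-6-phosphate builds up. Most α-arrestins carry PPxY motifs that recruit NEDD4-family ubiquitin ligases to membrane cargo, Arrdc3 being known for the traffic of cell-surface receptors and Arrdc1 for vesicles that bud from the plasma membrane. Arrdc5, another α-arrestin, was sought but is not among the gene symbols of the expression table.

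Library totals ran from 20184473 to 20680779 estimated counts. CPM below are counts divided by library size, adjusted with normalization factors for library composition. Hdgfl2, the targeted gene, gave 51.4, 56.2 and 58.2 CPM in WT, against 6.59, 5.56 and 11.8 CPM in HRP2-KO, without overlap. Its log2 fold change of -2.79 (standard error 0.32) did not pass edgeR's quasi-likelihood test at 0.05 (adjusted p = 0.0711). Hdgfl2 did pass 0.05 with DESeq2 (adjusted p = 2.9e-10) and with limma voom (adjusted p = 0.0284). In edgeR it passed only without HRP2-KO replicate 7 (adjusted p = 0.0152). All 12 stromal markers passed the filter, but so did all 13 macrophage markers, whose summed level was 9804 to 24979 CPM in WT and 1251 to 13974 CPM in HRP2-KO. The highest macrophage sums were in WT replicate 10 and HRP2-KO replicate 7. HRP2-KO replicate 7 also stood apart in its correlation of log2 CPM across genes with the other HRP2-KO libraries, 0.884 and 0.861, against 0.957 between replicates 6 and 44. In bulk RNA, fewer cells of a type and less RNA per cell cannot be told apart.

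Txnip and Arrdc3 were about 4-fold lower in HRP2-KO, and in both the lowest WT library lay above the highest HRP2-KO library. Arrdc4, Arrdc2, Mlxip and Arrdc1 were lower on average, with libraries of the 2 genotypes overlapping. The fitted log2 fold change was below 0 for 6 of 6 members, where 49% of all tested genes had one below 0. The libraries did not overlap and were lower in HRP2-KO for 2 of 6 members, where 14% of all tested genes did so. In edgeR's quasi-likelihood test 0 of 6 passed an adjusted p of 0.05, as 0.0073% of all genes did, and 2 had an unadjusted p below 0.05 and a lower level, as 9.1% of all genes did. DESeq2 called 2 of the members, Txnip and Arrdc3, and limma voom called Arrdc3, with 8.41% and 0.27% of all genes called. On log2(TPM + 1) and log2(TPM + 0.1) limma called Arrdc3, with 0.332% and 0.213% of all genes called. Nothing is read from these counts, because the contrast chose the members.

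**Figure D1:**
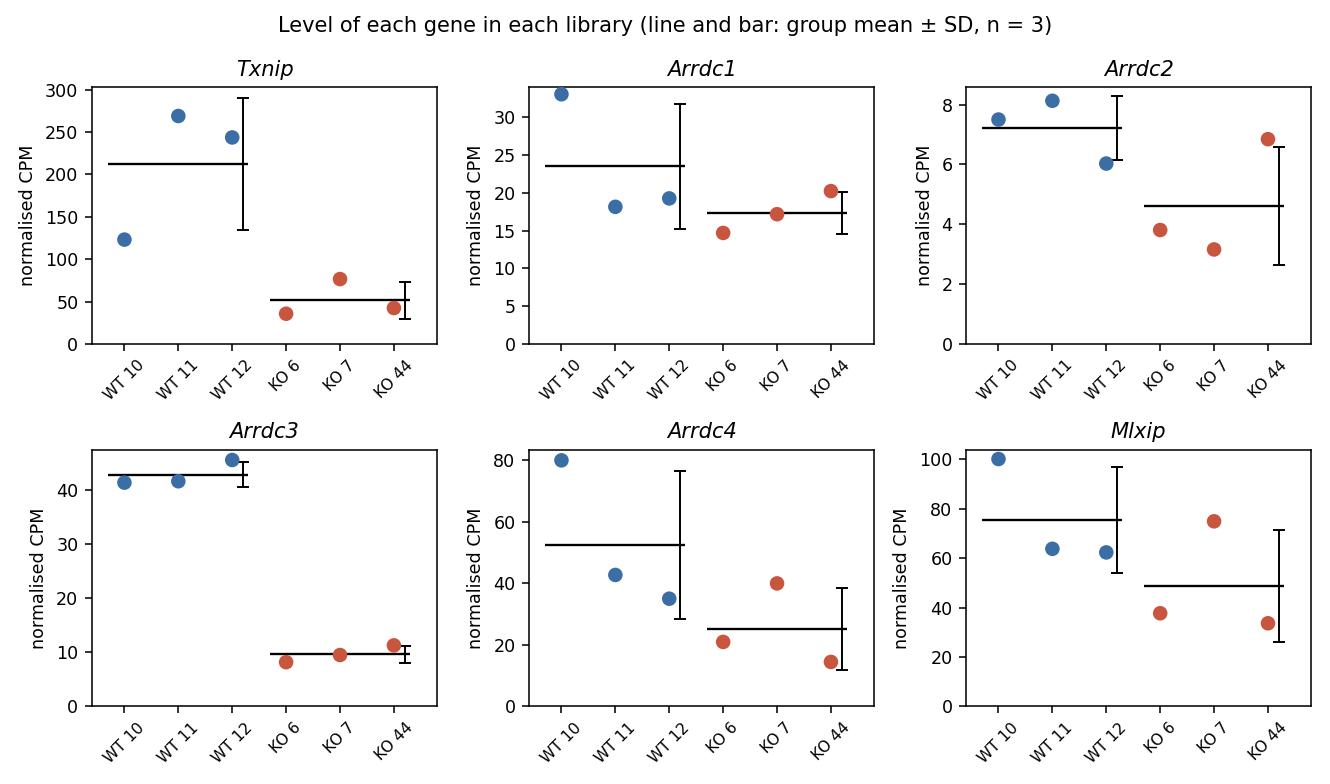
Normalised CPM (vertical axis, starting at 0) of each of the 6 genes in each library (horizontal axis), with the group mean as a line and its SD as a bar (n = 3). Txnip and Arrdc3 separate the genotypes, with HRP2-KO at 76.5 CPM or less against 123 CPM or more for Txnip, and at 11.3 or less against 41.4 CPM or more for Arrdc3.

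Txnip (Entrez 56338, GRCm38.p6 chromosome 3, 96557957 to 96561857) is the thioredoxin-binding member. Its level was 123, 269 and 244 CPM in WT, against 35.6, 76.5 and 42.3 CPM in HRP2-KO. The libraries did not overlap, but WT replicate 10 lay well below the other two WT libraries and HRP2-KO replicate 7 above the other two HRP2-KO libraries. Txnip averaged 212 ± 78.0 and 51.4 ± 21.9 CPM (SD, n = 3 each), or 4.12-fold lower in HRP2-KO by the fitted log2 fold change of -2.04 (standard error 0.42). Of all tested genes 2.90% had a lower log2 fold change.

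Arrdc3 (Entrez 105171, chromosome 13, 80883384 to 80896042), the adaptor linked to receptor traffic, had the smallest pooled SD of log2 CPM of the 6 and, in the edgeR fit, the largest fold. The fold was larger for Txnip on log2(TPM + 1), with transcript-length offsets, without WT replicate 10 and without HRP2-KO replicate 7. Arrdc3 had 41.4, 41.7 and 45.6 CPM in WT, against 8.20, 9.52 and 11.3 CPM in HRP2-KO. Each genotype formed a tight cluster, in which the highest library was 1.10 times the lowest in WT and 1.38 times in HRP2-KO. The means were 42.9 ± 2.35 and 9.67 ± 1.56 CPM (SD, n = 3 each), and the fitted value was -2.15 on the log2 scale (standard error 0.19), 4.43-fold lower in HRP2-KO. Of all tested genes 2.58% had a lower log2 fold change.

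Arrdc4 (Entrez 66412, chromosome 7, 68736994 to 68749238), the α-arrestin that shares MondoA regulation with Txnip, had the largest SD of log2 CPM within each genotype. On TPM the ratio of highest to lowest library was larger for Txnip in both genotypes and for Mlxip in HRP2-KO. The libraries read 80.0, 42.8 and 35.0 CPM in WT, against 20.98, 40.0 and 14.5 CPM in HRP2-KO. HRP2-KO replicate 7 lay within the WT range, and WT replicate 10 lay far above every other library. The means were 52.6 ± 24.1 and 25.2 ± 13.3 CPM (SD, n = 3 each), giving -1.06 on the log2 scale (standard error 0.48).

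Mlxip (Entrez 208104, chromosome 5, 123394521 to 123457932), which encodes MondoA, was highest in WT replicate 10, as Arrdc4 was, and second highest in HRP2-KO replicate 7. Mlxip read 100.2, 63.8 and 62.3 CPM in WT, against 37.7, 74.9 and 33.7 CPM in HRP2-KO. HRP2-KO replicate 7 exceeded WT replicates 11 and 12, so the genotypes overlapped. The means were 75.4 ± 21.4 and 48.8 ± 22.7 CPM (SD, n = 3 each), giving -0.63 on the log2 scale (standard error 0.37).

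Arrdc1 (Entrez 215705, chromosome 2, 24925352 to 24935335), the α-arrestin of plasma membrane vesicles, overlapped between genotypes on CPM, with WT replicate 10 above the other libraries. Its level was 33.1, 18.1 and 19.3 CPM in WT, against 14.7, 17.2 and 20.2 CPM in HRP2-KO. The log2 fold change of -0.44 (standard error 0.29) became -0.11 without WT replicate 10 and -0.71 with offsets for transcript length. Arrdc2 (Entrez 70807, chromosome 8, 70835129 to 70839720), another α-arrestin with PPxY motifs, had the fewest counts of the 6. Its level was 7.50, 8.13 and 6.03 CPM in WT, against 3.81, 3.16 and 6.84 CPM in HRP2-KO. HRP2-KO replicate 44 alone entered the WT range, and the log2 fold change of -0.65 (standard error 0.37) was -1.06 without it and -0.39 without HRP2-KO replicate 7.

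Because counts grow with transcript length, levels were compared between genes on the deposited TPM (transcript abundance) scale, which divides by length. Txnip averaged 172 ± 70.3 TPM in WT, above Arrdc4 at 38.4 ± 14.6, Arrdc1 at 32.7 ± 9.78, Arrdc3 at 23.6 ± 2.03, Mlxip at 22.8 ± 5.14 and Arrdc2 at 6.87 ± 1.23 TPM (SD, n = 3 each). The neighbours from Arrdc4 to Mlxip lay within their spread, while Txnip and Arrdc2 stood outside it. In HRP2-KO the order was Txnip at 34.8 ± 16.1, Arrdc4 at 22.1 ± 7.26, Arrdc1 at 20.7 ± 1.10, Mlxip at 12.7 ± 6.53, Arrdc3 at 4.51 ± 0.275 and Arrdc2 at 3.55 ± 1.02 TPM. Arrdc3 thus stood beside Arrdc1 and Mlxip in WT and beside Arrdc2 in HRP2-KO.

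The 5 α-arrestin transcripts together made up 219, 322 and 279 TPM in WT, against 75.8, 112 and 69.3 TPM in HRP2-KO. Txnip supplied 42.3%, 70.6% and 69.9% of that sum in the WT libraries and 35.5%, 47.7% and 34.8% in the HRP2-KO libraries. WT replicate 10 was therefore closer to HRP2-KO in the makeup of the pool, though not in its size. Arrdc1 held 12.7 ± 6.42% of the pool in WT and 25.1 ± 5.21% in HRP2-KO, and Arrdc4 14.99 ± 8.51% and 25.6 ± 3.41% (SD, n = 3 each). On TPM the genotypes did not overlap for 4 of 6 members, Arrdc1 and Arrdc2 being the additional ones, against 23.7% of all tested genes lower without overlap. The median log2 fold change of all genes was -0.21 in the limma fit on log2(TPM + 1), over 12665 genes with their own filter, against 0.02 in the edgeR fit on counts.

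**Figure D2:**
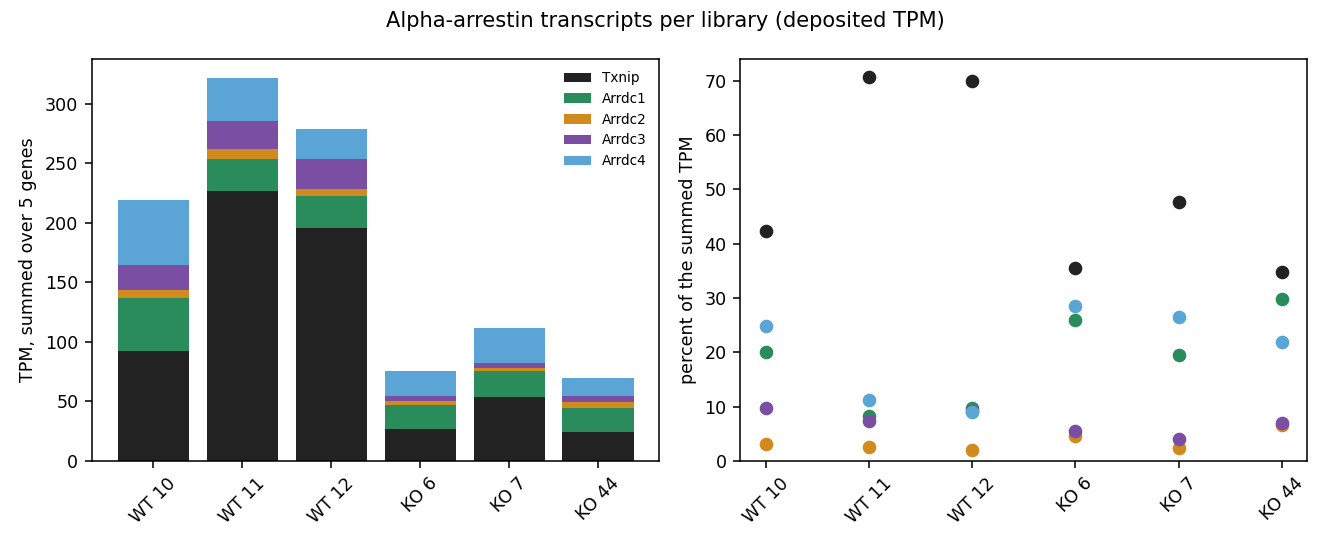
Deposited TPM of Txnip and Arrdc1 to Arrdc4 stacked per library (left, vertical axis from 0) and each gene's percent of that sum (right, vertical axis from 0). The stacks reach 219 to 322 TPM in WT and 69.3 to 112 TPM in HRP2-KO, and Txnip is the largest part in all 6 libraries.

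The 250 bases before the annotated start sites of Txnip, Arrdc4 and Arrdc3 are shown because Txnip and Arrdc3 had the 2 largest folds and because Txnip and Arrdc4 are the known MondoA targets of the group. MondoA and Mlx bind carbohydrate response elements, which are pairs of E-box-like letters. CCAAT boxes are bound by NF-Y and are not by themselves sites of MondoA. All 6 members matched the RefSeq promoter table of GRCm38.p6, Arrdc3 with several start sites. The windows are chr3:96557707-96557956 on the plus strand, chr7:68749239-68749488 on the minus strand and chr13:80883134-80883383 on the plus strand, written 5′ to 3′ toward the gene. Capitals mark the fixed letters of a relaxed E-box pair (2 copies of CACNNG with 5 bases between them), CACGTG (the E-box), CCAAT and GTAAACA (a forkhead motif), each sought on both strands, so that ATTGG is a CCAAT box on the other strand.
Txnip: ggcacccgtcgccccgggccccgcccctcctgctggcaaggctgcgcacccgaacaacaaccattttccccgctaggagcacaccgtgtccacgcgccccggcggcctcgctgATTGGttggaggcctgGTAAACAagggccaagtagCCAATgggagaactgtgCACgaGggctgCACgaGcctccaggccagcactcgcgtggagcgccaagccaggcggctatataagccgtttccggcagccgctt
Arrdc4: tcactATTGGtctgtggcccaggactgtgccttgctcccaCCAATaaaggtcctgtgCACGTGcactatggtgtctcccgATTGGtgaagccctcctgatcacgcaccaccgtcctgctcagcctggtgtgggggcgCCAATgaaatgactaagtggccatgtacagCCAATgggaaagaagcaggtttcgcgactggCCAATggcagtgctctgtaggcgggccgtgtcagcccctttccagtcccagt
Arrdc3: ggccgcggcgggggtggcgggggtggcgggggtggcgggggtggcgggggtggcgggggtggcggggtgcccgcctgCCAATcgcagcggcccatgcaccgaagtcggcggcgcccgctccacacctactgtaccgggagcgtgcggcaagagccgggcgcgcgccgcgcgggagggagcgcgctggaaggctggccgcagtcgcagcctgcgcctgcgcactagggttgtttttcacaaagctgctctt

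Txnip held 1 relaxed E-box pair, 85 to 69 bases before the start site, which 0.91% of 32851 promoter windows of the same length held. Its 2 CCAAT boxes lay 137 to 133 and 102 to 98 bases before the start, and 10.1% of windows held 2 or more. The forkhead letters, 121 to 115 bases before the start, occurred in 3.17% of windows, and a glucocorticoid-receptor palindrome, which was not capitalised, in 0.387%. Arrdc4 held 1 E-box, found in 6.02% of windows, and 6 CCAAT boxes, a number reached by 19 windows (0.0578%). The CCAAT box was not among the motifs first planned, and the cut at 6 is the Arrdc4 count itself. Nothing is therefore read from that share. A strict pair, CACGTG on both sides of 5 bases, occurred in 0 of 32851 windows.

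Arrdc3 held 1 CCAAT box and none of the other capitalised motifs in the window shown. Arrdc2 held 3 CCAAT boxes, where 2.79% of windows held 3 or more. Mlxip held 2 and Arrdc1 held 0. The cyclic AMP response element TGACGTCA was in 0 of the members' windows and in 1.55% of all. A match is a description of these letters, and overlap between motifs was allowed.

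Likeness between genes was measured as the root mean square distance between log2 CPM profiles, each centred on its own mean, over the 6 libraries, which all values share. These are the libraries whose contrast chose the members, so likeness among members in part restates that choice and is given as a description. Arrdc4 and Mlxip were 0.28 apart on the log2 scale, with 1.73% of 11068 genes closer to Arrdc4 than Mlxip was. Arrdc1 was 0.41 from Arrdc2 and 0.43 from Mlxip, with 24.3% and 29.8% of genes closer to Arrdc1. Txnip and Arrdc3 were 0.48 apart, with 0.325% of genes closer to Arrdc3, so that the order of pairs differs between the distance and the share of closer genes. Txnip was 0.88 from Arrdc4 and 0.90 from Mlxip. Relative to its 6-library mean, Txnip lay at 0.32, 1.44 and 1.302 in WT on the log2 scale, and Arrdc4 at 1.25, 0.34 and 0.06. WT replicate 10 was thus the lowest WT library for Txnip and the highest for Arrdc4.

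Znhit6, which takes part in snoRNP assembly, was nearest to Arrdc3 at a distance of 0.13, with 197, 208 and 210.4 CPM in WT and 42.7, 56.8 and 51.5 CPM in HRP2-KO. Camk2n1, an inhibitor of CaM kinase II, and Trp53i11 followed at 0.30 and 0.32. Vegfd, a lymphatic growth factor, was nearest to Txnip at 0.26, before Crebl2 at 0.33 and Fmo1 at 0.35. The nearest genes to Mlxip were Fbxo33, the lysosomal adaptor Plekhm1 and the autophagy gene Uvrag at 0.05, 0.06 and 0.07. Stard9, Itga9 and Rin2 were nearest to Arrdc4 at 0.09, 0.11 and 0.11. For Arrdc1 they were Sh3bp1, Nudt14 and the amino acid transporter Slc7a7 at 0.07, 0.07 and 0.09, and for Arrdc2 the ERK phosphatase Dusp6, the chaperone Cryab and Bmyc at 0.10, 0.14 and 0.17.

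Arrdc4 and Mlxip were high in libraries that were also high in macrophage markers. The summed macrophage markers were 24979, 10674 and 9804 CPM in WT, against 1251, 13974 and 2600 CPM in HRP2-KO. WT replicate 10, the highest library for both Arrdc4 and Mlxip, was also the highest for macrophage markers, and HRP2-KO replicate 7 was the highest HRP2-KO library for all of them. No macrophage marker was at 0 in all libraries, and 11 of 13 had a log2 fold change below 0. With the macrophage mean as a covariate the log2 fold change was -0.011 (standard error 0.25) for Mlxip and -0.32 (0.41) for Arrdc4, against -2.13 (0.27) for Arrdc3 and -1.79 (0.50) for Txnip. It was -0.16 (0.40) for Arrdc1, nearer 0 than the -0.44 without the covariate, and -0.93 (0.52) for Arrdc2, farther from 0 than the -0.65 without it. The covariate was fitted together with genotype on the same 6 libraries, and most of its genes were themselves lower in HRP2-KO. The part of macrophage content in the members' values therefore cannot be told apart from that of genotype and was not tested. Summed cell cycle markers were 179 to 263 CPM in WT and 538 to 1091 CPM in HRP2-KO, with 12 of 12 log2 fold changes above 0, and their part in the members' values was not tested. The stromal sums were 6059 to 11119 CPM in WT and 22816 to 29315 CPM in HRP2-KO, without overlap. Of the 12 stromal genes 7 had a log2 fold change above 0 and 5 had one below 0. Col1a1 and Col1a2, which encode the chains of type I collagen, were the 2 whose libraries did not overlap, with 2.57 and 1.73. These 2 genes supplied most of the stromal sum in each HRP2-KO library, with 15733 and 11814 of 29315 CPM in replicate 6. The sums therefore do not show that stromal markers rose as a group. The part of the stromal difference in the members' values was not tested. Of the other marker lists, neutrophil, endothelial, erythroid and lymphocyte sums were below 20 CPM in each library. The adipocyte sums were 50.1 to 154 CPM in WT and 65.5 to 192 CPM in HRP2-KO, and the osteoclast sums 27.8 to 37.4 and 56.8 to 64.6 CPM. Of 4 tested adipocyte genes 1 had a log2 fold change above 0 and 3 had one below 0. Of 4 tested osteoclast genes 2 were above 0 and 2 below. These sums therefore do not show that either list changed as a group.

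**Figure D3:**
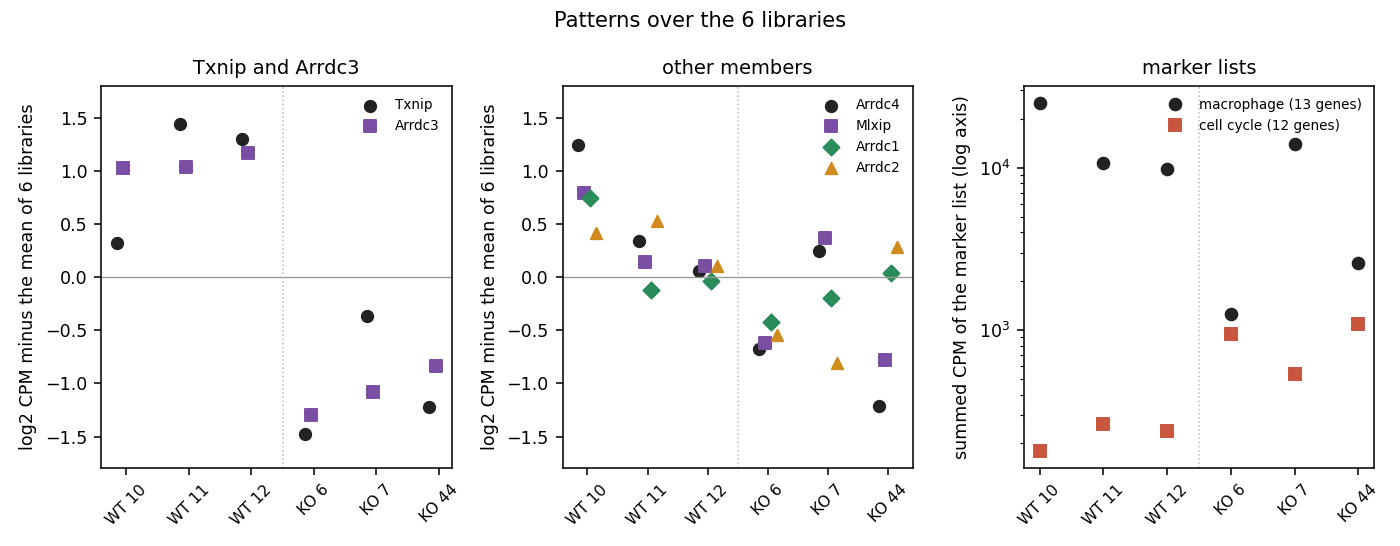
Log2 CPM of each gene minus its mean over the 6 libraries for Txnip and Arrdc3 (left) and for the other genes (middle), and the summed CPM of 13 macrophage and 12 cell cycle markers on a log axis (right), by library. Arrdc4 and Mlxip are highest in WT replicate 10 and, within HRP2-KO, in replicate 7, where the macrophage sums are 24979 and 13974 CPM.

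Arrdc4 also differed between libraries in the transcript length implied by its deposited values. Dividing a gene's count by its deposited FPKM (reads scaled to transcript length and library size) gives an implied transcript length for that library. The counting program and annotation are not known here, so reading this ratio as an abundance-weighted transcript length is an assumption. For Arrdc4 this length was 3054, 2771 and 3043 bases in WT, against 2023, 2591 and 1498 bases in HRP2-KO. Every HRP2-KO library lay below every WT library, with means of 2037 ± 546 bases in HRP2-KO and 2956 ± 160 bases in WT (SD, n = 3 each). The share of all genes whose implied lengths separate the genotypes was not counted, so nothing is read from this separation. GENCODE M21 lists 2 protein-coding Arrdc4 transcripts of 3905 and 1129 bases, and all 6 values fell between them. The sources used here do not name the transcripts that the authors quantified.

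Arrdc4 was chosen for this account after its lengths were seen. The ratio of the longest to the shortest library value was 2.04 for Arrdc4, exceeded by 7 of 10290 genes with an FPKM of at least 1 in each library, where the median ratio was 1.01. It was 1.10 for Arrdc3, 1.04 for Arrdc1 and at most 1.01 for Txnip, Arrdc2 and Mlxip. The WT to HRP2-KO ratio of Arrdc4 was accordingly 2.09 on CPM and 1.74 on TPM, whereas for the other 5 genes the TPM ratio was the larger. In HRP2-KO replicate 44, where Arrdc4 was shortest, the genes in the shortest of 5 length groups had a median deviation of 0.55 from the 6-library mean on the log2 scale, and those in the longest a median of -0.49, and the part of that shift in the Arrdc4 length was not tested. HRP2-KO replicate 6, at 2023 bases, had medians of 0.02 and 0.03 in these 2 groups, and HRP2-KO replicate 7 had -0.15 and 0.17. The WT libraries had medians of -0.17 to -0.13 in the shortest group and 0.07 to 0.13 in the longest.

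**Figure D4:**
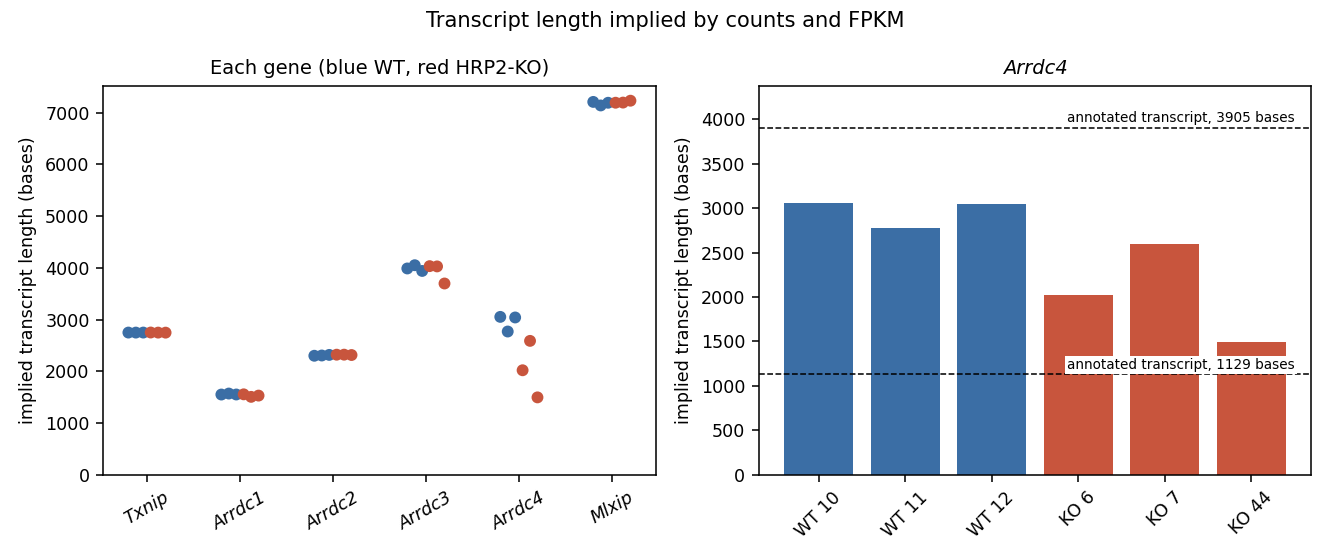
Transcript length in bases implied by counts and FPKM, per library, for the 6 genes (left, blue WT and red HRP2-KO) and for Arrdc4 alone as bars from 0 (right), with dashed lines at the 2 annotated coding transcripts. Arrdc4 ranges from 1498 to 3054 bases, while Txnip stays at 2750 to 2752 bases.

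The wider pathway was followed in 8 lists with 82 genes, of which 76 were tested. In edgeR's quasi-likelihood test 0 of 76 passed an adjusted p of 0.05 in either direction, and 18 had an unadjusted p below 0.05, 5 higher and 13 lower in HRP2-KO. That is 23.7% of the pathway genes against 21.8% of all tested genes, which split into 12.7% higher and 9.1% lower. DESeq2 called 9 of 81, 2 higher and 7 lower, where the calls over all genes were 4.55% higher and 3.86% lower. Among the 9 were Hk1 and Prdx4, higher in HRP2-KO, and Wwp1, Adrb3, Fkbp5 and Tsc22d3, lower, which are described below. EdgeR without HRP2-KO replicate 7 called 23 of 77, 7 higher and 16 lower, where 24.1% of all genes were called, 12.1% higher and 12% lower.

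Among the partners and relatives of MondoA, Mlx, the obligate partner, stood at 28.3, 24.2 and 26.3 CPM in WT, against 22.0, 24.2 and 31.2 CPM in HRP2-KO, so the genotypes overlapped. Mlxipl, which encodes ChREBP, the liver paralog of MondoA, was at most at 0.554 CPM and did not pass the filter. Mxd1 and Mga, other proteins of the MAX and MLX network, had log2 fold changes of -0.44 and -0.39 with standard errors of 0.27 and 0.30. The 5 tested genes of this list had a median log2 fold change of -0.32, where that of all genes was 0.02, and 5 of 5 were below 0. Mlx was close to 0, at -0.03 (standard error 0.20). The genotypes overlapped for all 5, and 0 had an unadjusted p below 0.05 in edgeR's test.

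Among receptors and transporters reported as α-arrestin cargo, 7 of 9 tested genes had a log2 fold change below 0, with a median of -0.91. Adrb3, a receptor gene of fat cells, averaged 5.12 ± 3.04 in the WT and 1.36 ± 0.364 CPM in the HRP2-KO libraries (SD, n = 3 each). Its log2 fold change was -1.91 with a standard error of 0.55, and it did not pass edgeR's test (adjusted p = 0.146).

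The ubiquitin ligases that bind PPxY motifs had log2 fold changes on both sides of 0. Wwp1 was at 605, 348 and 396 CPM in WT, against 61.5, 191 and 35.4 CPM in HRP2-KO, without overlap, and its relative Wwp2 at 64.1 ± 15.1 and 110.4 ± 33.4 CPM (SD, n = 3 each). Their log2 fold changes were -2.23 and 0.78 with standard errors of 0.65 and 0.31, and neither passed edgeR's test (adjusted p = 0.151 and 0.212). The 11 ligase and adaptor genes had a median log2 fold change of -0.11. The 11 ESCRT genes, whose products sever budding membranes and include the Arrdc1 partner Tsg101, had a median of -0.08, with Tsg101 at 94.8 ± 0.723 and 78.5 ± 8.13 CPM and Stam at 60.8 ± 3.66 and 47.5 ± 6.89 CPM (SD, n = 3 each).

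Other genes with an arrestin fold had a median log2 fold change of -0.70 over 6 tested genes. Vps26c and Vps26a, endosomal sorting subunits, had log2 fold changes of -0.56 and -0.46 with standard errors of 0.16 and 0.18 (edgeR adjusted p = 0.145 and 0.210). The β-arrestin gene Arrb2 stood at 299, 121 and 114 CPM in WT and at 19.0, 164 and 37.5 CPM in HRP2-KO, the same order of libraries as in the macrophage sums. It falls outside the rule for named genes and was picked after its values were seen.

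Of 14 tested thioredoxin and peroxiredoxin genes 10 had a log2 fold change above 0, with a median of 0.34. Prdx4, the peroxiredoxin of the endoplasmic reticulum, stood at 42.3, 58.1 and 51.4 CPM in WT, against 96.1, 104 and 130.0 CPM in HRP2-KO, without overlap, and Prdx6 at 248 ± 46.7 and 143 ± 38.1 CPM (SD, n = 3 each). Their edgeR adjusted p-values were 0.0970 and 0.178. Of 9 tested genes of glucose transport and phosphorylation 4 were above 0. The largest value was that of Slc2a1, which encodes GLUT1, at 0.85 (standard error 0.43, edgeR adjusted p = 0.293), with levels of 79.4, 91.4 and 119 CPM in WT, against 124, 295 and 104 CPM in HRP2-KO, which overlapped. The 2 genes with the smallest p were the hexokinase gene Hk1 at 174 ± 5.10 and 237 ± 5.84 CPM and the transporter gene Slc2a10 at 12.3 ± 2.42 and 21.9 ± 5.94 CPM (SD, n = 3 each; edgeR adjusted p = 0.189 and 0.185). The list median was -0.31.

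Glucocorticoid-response genes, a class known to include Txnip, had a median log2 fold change of -0.78 over 12 tested genes, 9 of them below 0 and 6 lower without overlap, the latter against 14% of all tested genes. Fkbp5, a co-chaperone of the glucocorticoid receptor, stood at 361, 273 and 240.5 CPM in WT, against 142, 163 and 133 CPM in HRP2-KO. Tsc22d3, which encodes GILZ, was at 188 ± 66.6 and 89.6 ± 6.38 CPM (SD, n = 3 each). Neither passed edgeR's test (adjusted p = 0.110 and 0.129). HRP2-KO replicate 7 was the highest HRP2-KO library for Fkbp5 and the lowest for Tsc22d3. It was also the highest for the clock gene Per1, at 110, 171 and 75.1 CPM in HRP2-KO. Per1 was picked after its values were seen.

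**Figure D5:**
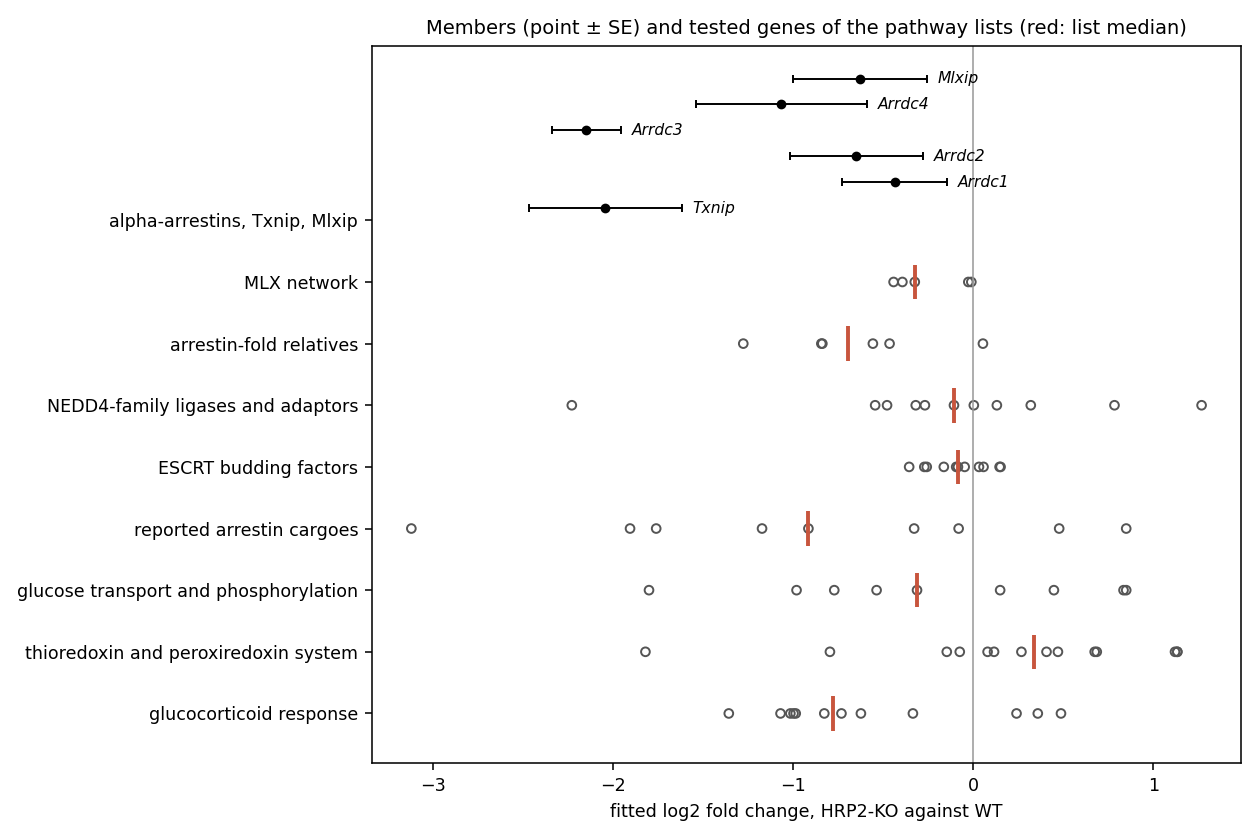
Fitted log2 fold change of HRP2-KO against WT (horizontal axis) for the 6 genes with their standard errors (top) and for each tested gene of the 8 pathway lists as open circles, with list medians in red. List medians run from -0.91 for reported arrestin cargoes to 0.34 for the thioredoxin and peroxiredoxin system.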

How the data were processed

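RNA was measured in 3 WT and 3 HRP2-KO samples, grouped and numbered by the sample titles. The submitters' processing notes name BWA and the build GRCm38.p6. How reads were assigned to genes, with which annotation and whether by strand, remains unnamed in the sources used here. Values of overlapping genes and close paralogs are therefore uncertain. The authors deposited estimated counts per gene without normalization, TPM scaled to length and a common total, and, per the file headers, FPKM, a count scaled by transcript length and library size. Another 30 columns, which hold averages and normalized counts, were not used.

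The design assumed whole counts, and the estimated counts were rounded, filtered (filterByExpr of edgeR, at least 10 counts and a total of 15) and scaled with TMM factors. The fit was edgeR 4.0.16 (R 4.3.3), quasi-likelihood F-test on genotype, two-sided, Benjamini-Hochberg over 13696 genes, threshold 0.05. A standard error is the log2 fold change divided by the square root of F. Log2 CPM for profiles used a prior count of 2, and likeness was sought among genes with a mean of at least 5 CPM. A gene with 0 counts allows up to 0.139 to 0.160 CPM per library (3 counts, counting error only). No WT or HRP2-KO libraries agreed within counting noise. The labels name no batch, so batch and genotype cannot be told apart.

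The genes and lists were chosen with earlier results of these data known. Named genes are the 6 members, Hdgfl2, the 3 nearest genes to each member and the 2 with the smallest p in each pathway list, except 1 gene that is not reported here, plus Mlx, Mlxipl, Arrb2, Slc2a1, Per1, Col1a1 and Col1a2, which were added after their values were seen. Simulated counts were used to test the edgeR step. As alternatives the fit was repeated with other factors (RLE, upper quartile), with no filter or 1 CPM in 3 samples, with DESeq2 1.42.0 and limma 3.58.1 (voom, or a trended fit to log2(TPM + 1) or log2(TPM + 0.1) of genes with 1 TPM or more in 3 samples), with offsets for 5 transcript-length groups, a macrophage covariate and each replicate left out. Protein sequences were not used. Promoter windows come from RefSeq and transcript lengths from GENCODE M21. Figures used matplotlib 3.10.9.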

Additional observations from a re-analysis of the deposited data

How the results depend on the processing

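The log2 fold change was below 0 in all 96 values from 16 alternatives over the 6 members, and 93 moved by less than 1 SD between replicates. With the macrophage mean as a covariate that of Arrdc4 became -0.32 and that of Mlxip -0.011, and on log2(TPM + 0.1) that of Arrdc3 became -2.36. Leaving out 1 replicate gave ranges of -0.59 to -0.11 for Arrdc1, -1.06 to -0.39 for Arrdc2, -2.29 to -2.02 for Arrdc3, -1.53 to -0.63 for Arrdc4, -2.40 to -1.83 for Txnip and -1.04 to -0.37 for Mlxip. Without HRP2-KO replicate 7, 4 members passed an adjusted p of 0.05 (Arrdc3, Arrdc4, Txnip and Mlxip), where 12% of all genes were called lower. With any other replicate left out, as in the fit reported, none of the members did.

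The count of called genes, 1 in the fit reported, was 1553 with DESeq2, 37 with limma voom, 42 on log2(TPM + 1), 27 on log2(TPM + 0.1), 3370 without HRP2-KO replicate 7 and 0 without HRP2-KO replicate 44, a range of 0 to 3370 over the replicates left out. The called pathway genes, 0 in the fit reported, were 9 with DESeq2 and from 0 to 23 over the replicates left out, 23 being the count without HRP2-KO replicate 7. The causes were not tested. No paired analysis was possible because the groups share no replicate number. Depth limits Arrdc2 most, with 59 to 176 counts per library.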
